A study of Arabidopsis thaliana with 18 samples.

Results

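The pericentromeric regions of the 5 Arabidopsis thaliana chromosomes held 11333 of the 111600 acetylation peaks listed in 9 chromatin immunoprecipitation libraries. A peak was counted as pericentromeric when its midpoint fell in a fixed window around a centromere. In TAIR10 coordinates the windows ran from 11500000 to 17700000 on chromosome 1, from 1100000 to 7200000 on chromosome 2, from 10300000 to 17300000 on chromosome 3, from 1500000 to 6300000 on chromosome 4 and from 9000000 to 16000000 on chromosome 5. Together they spanned 31.1 Mb, and the remaining 88.0 Mb is called the arms. The windows were set by position and used no measured acetylation.

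Pericentromeric heterochromatin flanks the centromere repeats and is packed with transposons, which plants silence with DNA methylation, methylation of histone H3 at lysine 9 and removal of acetyl groups from histones. Acetylation of H3 at lysine 9 (H3K9ac) or lysine 14 (H3K14ac) is found mainly at the starts of active genes. HDA9 is a histone deacetylase, an enzyme that removes acetyl groups from histones. POWERDRESS (PWR) is a SANT-domain protein known to act with HDA9.

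The groups were Col wild type (WT), the hda9-1 mutant, which carries a lesion in HDA9, and the pwr-2 mutant, which carries a lesion in PWR. Genotypes are those of the genotype label, and sample titles write hdac for hda9-1. Seedlings were collected at an age of 10 days, after growth under a cycle of 16 h light and 8 h dark at 23 °C. Each genotype has 2 biological replicates for H3K9ac. For H3K14ac there is a single library of each genotype, and its values therefore have no replicate check. Input samples were not analysed here.

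Each listed peak carries a whole number, which was read as the number of reads in the peak. The peaks of a library held 1.95 and 2.22 M reads (M, 1e6) in WT for H3K9ac. The hda9-1 lists held 12.3 and 18.2 M, the pwr-2 lists 3.76 and 8.87 M, and the H3K14ac lists 0.668 to 1.09 M. Depth, used here for the reads in a library's peaks, therefore followed genotype: every mutant H3K9ac list held more than both WT lists. Reads outside peaks were not used, so sequencing depth itself was not measured. Depth and genotype cannot be told apart in any comparison of a mutant with WT. As a check of the tissue, 5 of 6 green-tissue genes such as RBCS1A, which encodes the small subunit of Rubisco, were marked by H3K9ac in all 6 libraries, and the 5 seed genes and 3 pollen genes were marked in none of the 6. H3K14ac gave no such check. RBCS1A, CAB2, CAB1, LHB1B2 and PSBO1 had no H3K14ac peak base in any genotype, and LHCB5 had 394 bp in WT alone. The seed genes had none either, while the pollen gene sks14 had 1000 bp in WT.

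The pericentromeric windows were poor in acetylation peaks in every library. Peaks per Mb and coverage were taken over the full length of the windows. Whether reads could be placed as well there as in the arms was not tested. The WT libraries had 40.2 and 42.8 H3K9ac peaks per Mb in the windows, those of hda9-1 42.3 and 43.2, and those of pwr-2 41.3 and 42.1. The arms of the same libraries held 118 to 132 peaks per Mb. Peak density in the windows was 0.332 times that in the arms on average over the 6 libraries, a log2 ratio of -1.59 ± 0.03 (SD, n = 6). The exact two-sided sign-flip permutation test gave p = 0.03125, the smallest that 6 libraries can give, with the windows lower in 6 of 6 libraries.

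The share of sequence under H3K9ac peaks separated the regions further. In WT 7.196% and 6.96% of the windows lay under peaks. The values were 7.79% and 7.95% for hda9-1 and 7.81% and 7.34% for pwr-2. They covered 23.7% to 31.8% of the arms. The log2 ratio of windows to arms was -1.86 ± 0.11 (SD, n = 6), or 0.276-fold, with an exact permutation p = 0.03125 and the same direction in 6 of 6 libraries.

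Pericentromeric peaks were narrower than arm peaks, and their median reads per kb was slightly higher. Median width in the windows was 1400 and 1200 bp in the WT libraries and 1200 bp in each mutant library, against 1400 to 1600 bp in the arms. The log2 ratio of median widths was -0.28 ± 0.10 (SD, n = 6; exact permutation p = 0.03125). This call was lost when the windows were widened by 0.5 Mb at each edge or when chromosome 4 was left out (exact permutation p = 0.125 in both). Median reads per kb of peak were 91.0 in the windows and 88.1 in the arms of WT replicate 1, and 658 and 624 in hda9-1 replicate 2, the deepest library. By this median the windows were 1.04-fold higher over the 6 libraries, a log2 ratio of 0.06 ± 0.02 (SD, n = 6; exact permutation p = 0.03125), and higher in 6 of 6. Reads pooled over all peaks did not differ this way in WT. They gave 83.98 per kb in the windows and 84.22 in the arms of WT replicate 1, and 93.93 and 93.83 in WT replicate 2. In each mutant library the pooled value was higher in the windows.

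**Figure D1:**
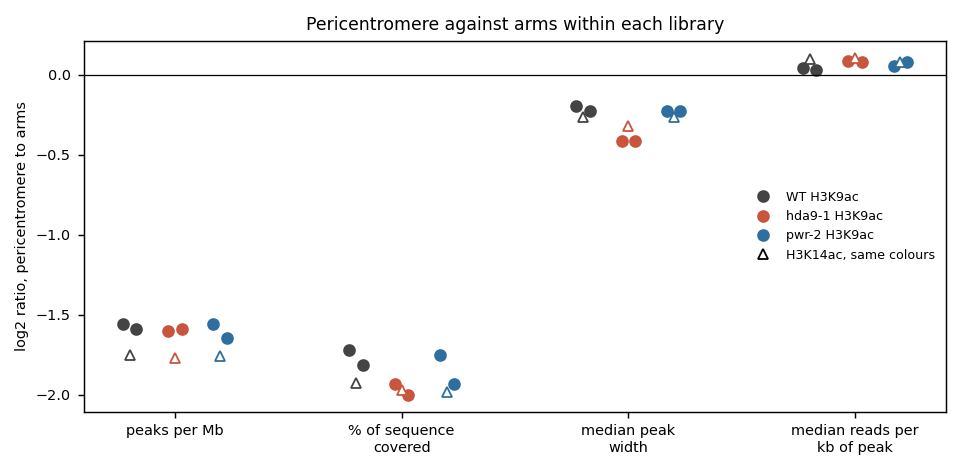
The log2 ratio of pericentromeric windows to arms (vertical axis) is plotted for 4 measures, with a filled circle for each H3K9ac library, an open triangle for each H3K14ac library, and colours for genotype. Peak number, coverage and median width lie below 0 and median reads per kb lie above 0 in all 9 libraries. The 2 hda9-1 circles for coverage lie below both WT circles.

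H3K14ac gave values of the same order. The windows held 33.99 peaks per Mb in WT, 39.6 in hda9-1 and 39.0 in pwr-2, against 115, 135 and 132 in the arms. H3K14ac peaks covered 4.07% of the windows in WT, 4.19% in hda9-1 and 4.59% in pwr-2. With 1 library per genotype these differences were not tested.

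The depletion of the windows was then compared between genotypes. The log2 ratio of coverage was -1.72 and -1.81 for the WT libraries. It was -1.93 and -1.999 for hda9-1, and -1.75 and -1.93 for pwr-2. Both hda9-1 libraries lay below both WT libraries, while the pwr-2 libraries overlapped WT. The difference from WT was -0.20 in hda9-1 (exact two-sided permutation p = 0.333, the smallest that 2 against 2 libraries can give) and -0.07 in pwr-2 (exact permutation p = 0.667). Mean coverage of the windows was 7.08% ± 0.17 in WT and 7.87% ± 0.11 (SD, n = 2 each) in hda9-1, and that of the arms was 24.1% ± 0.5 and 30.8% ± 1.4.

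The log2 ratio of peak number moved by -0.02 in hda9-1 and by -0.03 in pwr-2 (exact permutation p = 0.667 in both), and the sign of both turned under other settings. The log2 ratio of median width was 0.21 lower in hda9-1 than in WT (log2 difference -0.21, exact permutation p = 0.333), with no overlap between the groups. In pwr-2 that difference was -0.01 (exact permutation p = 1). The medians behind these ratios took few distinct values. In windows and arms they were 1400 and 1600 bp in WT replicate 1. WT replicate 2 and both pwr-2 libraries had 1200 and 1400 bp. Both hda9-1 libraries had 1200 and 1600 bp.

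Peaks thinned out steadily toward the centromere. Within 1 Mb of a window edge the 6 H3K9ac libraries held 78.2 to 84.8 peaks per Mb. From 1 to 2 Mb inside they held 34.2 to 37.6, and from 2 Mb inward 11.4 to 12.1. Protein-coding genes also thin out along this path, from 190 to 98.4 to 45.3 per Mb, while annotated pseudogenes, the class that holds most transposon genes in this annotation, rise from 51.5 to 114 to 152 per Mb. Peaks per protein-coding gene were 0.412 to 0.447 in the outer part and 0.2505 to 0.266 in the innermost. The peaks that remained near the centromere were not sparse in reads: their median reads per kb were 1.08 to 1.15 times those of the arms.

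**Figure D2:**
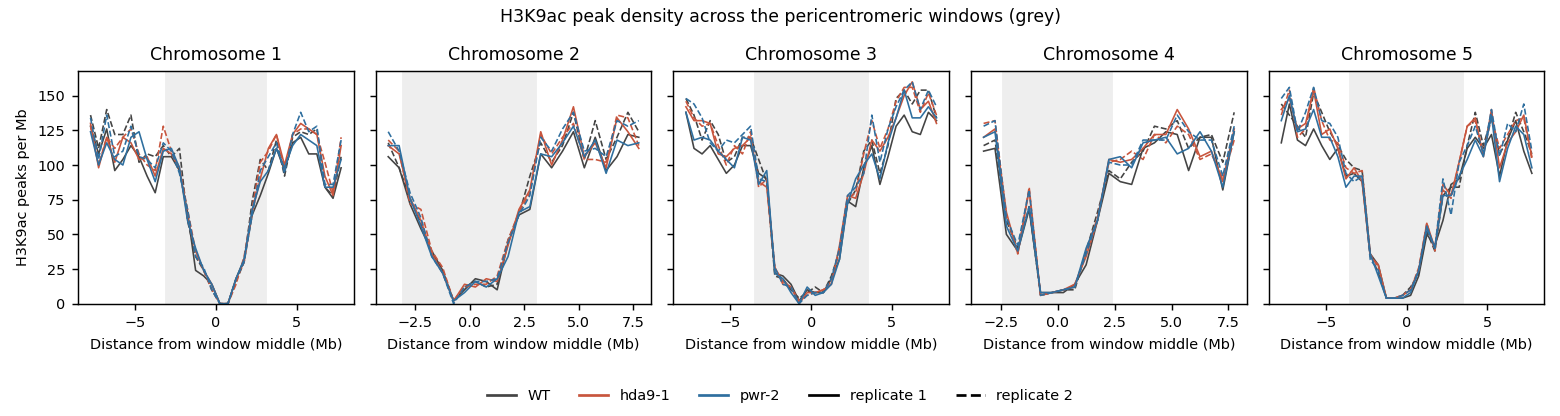
H3K9ac peaks per Mb (vertical axis) in steps of 0.5 Mb against the distance from the middle of the window in Mb (horizontal axis), 1 panel per chromosome, with colour for genotype, solid and dashed lines for replicates 1 and 2, and grey for the window. The 6 lines run together on each chromosome and fall to 8 peaks per Mb or fewer near the middle of each window.

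Chromosomes differed in the size of the depletion. Window coverage by H3K9ac was 0.313 to 0.374 times that of the arms on chromosome 1 and 0.208 to 0.239 times on chromosome 4. These ranges over the 6 libraries did not overlap. Chromosomes 2, 3 and 5 had 0.227 to 0.274, 0.248 to 0.329 and 0.238 to 0.316 times, and each overlapped chromosome 1, chromosome 4 or both. For H3K14ac the lowest range was that of chromosome 3, 0.218 to 0.237, and chromosome 4 had 0.225 to 0.244.

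The genes under the peaks were mostly protein-coding. Of the pericentromeric H3K9ac peaks, 85.8% to 89.2% overlapped a protein-coding gene by at least 1 bp, against 96.4% to 97.8% in the arms. Peaks over no annotated gene made up 3.74% to 7.55% in the windows and 0.877% to 2.05% in the arms. Peaks over pseudogenes alone made up 2.00% to 2.71% of H3K9ac peaks and 3.57% to 3.88% of H3K14ac peaks in the windows.

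A gene was called marked when 50% or more of the 500 bp at one of its ends lay under peaks. Of 3383 protein-coding genes in the windows, 34.9% to 39.1% were marked by H3K9ac in each library, against 51.6% to 63.2% of the 24049 in the arms. Of 3346 pericentromeric pseudogenes, 1.02% to 1.43% were marked, and 3275 were marked in none of the 6 libraries. Protein-coding genes marked in all 6 libraries numbered 897 in the windows, or 26.5%, against 41.7% in the arms. The marked share of protein-coding genes was 41.5% to 46.4% in the outer 1 Mb and 18.1% to 21.3% beyond 2 Mb.

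**Figure D3:**
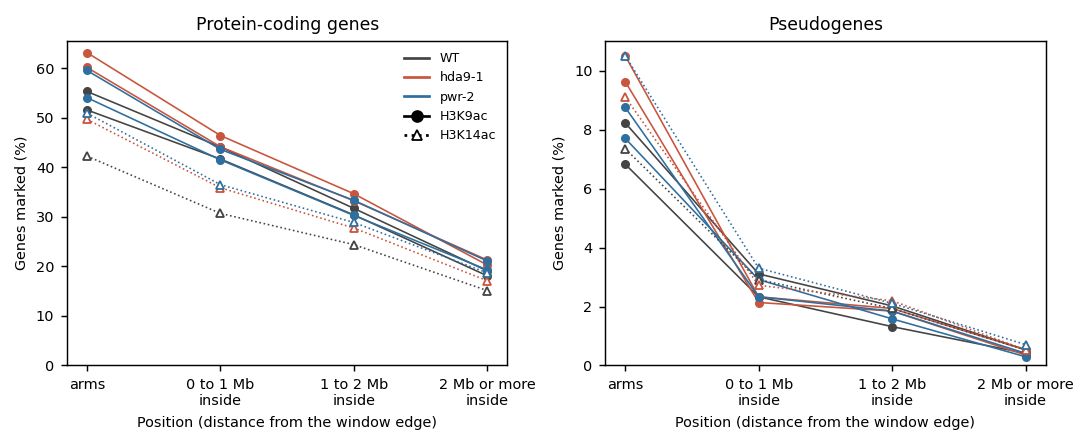
The share of genes marked (vertical axis, %) in the arms and at 3 distances inside the window edge (horizontal axis), for protein-coding genes and for pseudogenes, 1 line per library. In each library the share is highest in the arms and lowest beyond 2 Mb for both classes, where 18.1% to 21.3% of protein-coding genes carry H3K9ac.

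Both marks met on most of these genes. In WT, 1005 pericentromeric protein-coding genes carried H3K9ac in both libraries, and 66.3% of them also carried H3K14ac, against 69.1% in the arms. The share was 75.5% of 1209 genes in hda9-1, against 74.7% in the arms, and 77.0% of 1089 in pwr-2, against 77.5%.

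Some pericentromeric genes were marked far inside the windows in all 6 H3K9ac libraries. The innermost was AT5G33280, 3.45 Mb from the nearest window edge, with 1400 and 1000 bp under peaks in WT. The hda9-1 libraries had 800 bp each and those of pwr-2 had 658 and 800 bp. AT3G32940 lay 3.19 Mb inside on chromosome 3, AT2G10940 lay 2.89 Mb inside on chromosome 2, AT1G38131 lay 2.79 Mb inside on chromosome 1 and AT4G06676 lay 2.40 Mb inside on chromosome 4. AT2G10940 had no H3K14ac peak in any genotype, while the other 4 had one in all 3.

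Of the protein-coding genes in the windows, 5 had the highest mean peak density over the WT libraries. AT2G14460, one of them, had 400 bp under a peak in each H3K9ac library, and its density was 2.35 and 2.77 times the library median in WT. In the mutants it was 2.08 and 1.92 times (hda9-1) and 2.11 and 2.12 times (pwr-2). SEF, a subunit of the SWR1 chromatin remodelling complex, stood at 2.24 and 1.64 times the median in WT. The others were AT3G46845, AT1G47310 and MEE51, a gene named for the arrest of embryos that lack it. Denser peaks lay elsewhere: in WT replicate 1 the densest window peak, at 2.43 times the median, stood over the non-coding RNA gene AT1G34418.

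HDA9 itself lies in the chromosome 3 window. For H3K9ac, 600 and 809 bp of the gene lay under peaks in the WT libraries, 809 and 800 bp in those of hda9-1, and 800 bp in each of pwr-2. For H3K14ac the lengths were 600, 800 and 800 bp in that order of genotypes. These peaks report acetylation over the locus and do not check whether the gene is mutated. Among known silent repeats in the windows, the CACTA1 transposon (AT2G12210) and the AtMU1 transposon (AT4G08680) had no peak base in any of the 9 libraries. Whether reads could be placed on these transposons was not tested. The IG/LINE locus (AT5G27845) had no H3K9ac peak base but had 1200, 1200 and 2400 bp of H3K14ac in WT, hda9-1 and pwr-2.

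One library stood apart at a ribosomal RNA locus on chromosome 3. A peak of 9600 bp at chr3:14193401-14203000, over the rRNA genes AT3G41768 and AT3G41979, held 3541 reads in WT H3K9ac replicate 2, at 3.78 times that library's median density. No peak overlapped these genes in the other 8 libraries.

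Few pericentromeric genes gained H3K9ac in the mutants. A gene was counted as gained when both libraries of a mutant marked it and neither WT library did, and as lost in the reverse case. In hda9-1, 114 of 6428 pericentromeric genes unmarked in WT were gained, or 1.77%, where the share over all chromosomes was 7.45%. In pwr-2, 70 were gained, or 1.09%, against 4.05% over all chromosomes. Both comparisons use the same WT libraries. The mutant libraries were the deeper ones, and the part of depth in these counts was not tested.

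The difference between regions was also present among protein-coding genes alone. In hda9-1, 82 of 1964 unmarked pericentromeric genes were gained, or 4.18%, against 11.5% in the arms. In pwr-2, 46 were gained, or 2.34%, against 6.27%. Of 3292 unmarked pericentromeric pseudogenes, 4 were gained in hda9-1 (0.122%) and 5 in pwr-2 (0.152%), against 11 and 6 of 511 in the arms (2.15% and 1.17%). Unmarked genes in the windows lay farther from WT peaks: 60.7% of them were over 3000 bp away, against 27.6% in the arms. Among these distant genes 2.01% were gained in hda9-1 in the windows and 7.01% in the arms, and among genes touching a WT peak 21 of 84 and 296 of 901 were; this split by distance was chosen after the data were seen.

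Losses went the other way. In hda9-1, 34 of 1165 marked pericentromeric genes were lost, or 2.92%, where the share over all chromosomes was 1.24%. In pwr-2, 33 were lost, or 2.83%, against 1.69%. These counts rest on each library: requiring a mark in 1 WT library alone, which loosens the rule, gave 172 losses in hda9-1 without WT replicate 1 and 126 without WT replicate 2, and 189 and 154 in pwr-2. Without WT replicate 1 the gains were 197 in hda9-1 and 129 in pwr-2, and without WT replicate 2 they were 248 and 174. Without replicate 2 of the mutant the losses were 57 in hda9-1 and 103 in pwr-2. Without replicate 1 of the mutant the gains were 184 in hda9-1 and 160 in pwr-2, and the pwr-2 losses were 50. Without pwr-2 replicate 2 the pwr-2 gains were 141. These looser counts are for the windows alone. Shares over all chromosomes were not taken under them, so the contrast between windows and all chromosomes was not checked there.

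**Figure D4:**
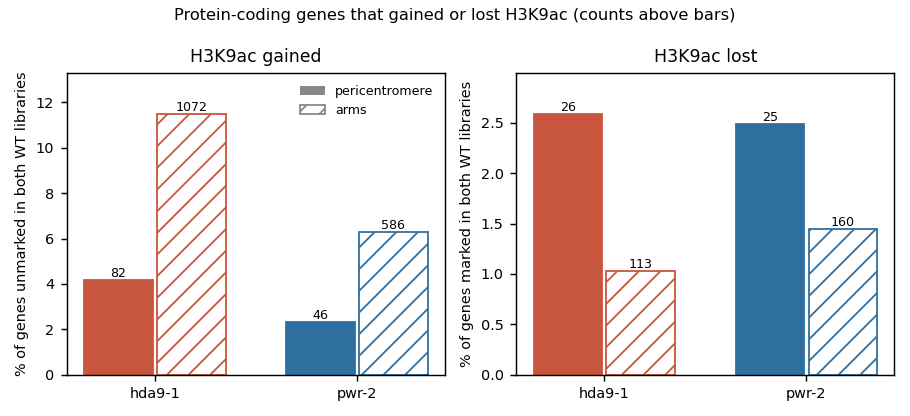
The share of protein-coding genes that gained H3K9ac (left, % of genes unmarked in both WT libraries) or lost it (right, % of genes marked in both WT libraries) in each mutant, filled for the windows and hatched for the arms, with gene counts above the bars. Gains were 4.18% against 11.5% in hda9-1 and losses 2.59% against 1.03%.

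H3K14ac, with 1 library per genotype, was gained at 344 of 7067 pericentromeric genes in hda9-1, or 4.87%, and at 368 in pwr-2, or 5.21%; the shares over all chromosomes were 15.2% and 16.1%. It was lost at 173 of 1073 genes in hda9-1, or 16.1%, against 14.4%, and at 160 in pwr-2, or 14.9%, against 12.9%.

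XTH30, which encodes a cell wall xyloglucan-modifying enzyme, showed the largest gain in hda9-1. Its H3K9ac coverage was 0 bp in both WT libraries, 2711 bp in both of hda9-1, and 1481 and 1081 bp in those of pwr-2. The mutant libraries were all above both WT libraries, an order largely set by the rule for a gain, which the gene met in both mutants. No H3K14ac peak base lay on the gene in any genotype. The gene lay in a merged region (chr1:11568001-11578600), shared with bZIP68, AT1G32160 and AT1G32172, that also held peaks in WT. Peaks covered 5200 and 3800 bp of that region in WT, 9800 bp in both hda9-1 libraries, and 8800 and 7600 bp in pwr-2. The peaks over XTH30 stood at 0.699 and 0.721 times the library median density in hda9-1 and at 0.776 and 0.725 times in pwr-2.

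FBP, which encodes a fructose-1,6-bisphosphatase, had 1200 and 600 bp under peaks in WT. Both hda9-1 libraries had 1903 bp and both pwr-2 libraries 3203 bp. The WT peaks lay on the gene but covered too little of its ends for it to count as marked. The WT peaks were denser than the mutant peaks, at 1.17 and 1.11 times the library median. The hda9-1 peaks stood at 0.663 and 0.684 times, the pwr-2 peaks at 0.725 and 0.607 times. With the same number of the densest peaks taken from every library, the change of FBP became -900 bp in both mutants.

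MSRB6, a methionine sulfoxide reductase gene, was covered in pwr-2 alone among the H3K9ac libraries, with 1767 and 2218 bp. TBL22, of a family linked to cell wall acetylation, was covered by 1959 and 1759 bp in hda9-1, by 159 and 0 bp in pwr-2 and by none in WT, while its H3K14ac coverage was 1559 bp in WT, 0 in hda9-1 and 359 in pwr-2. RVE2, a MYB-like transcription factor gene, had 1400 and 1600 bp in hda9-1, 0 and 1400 in pwr-2 and none in WT. GUS3, a glucuronidase gene 2.76 Mb inside the chromosome 5 window, had 1200 bp in both hda9-1 libraries and 1284 and 1200 bp in pwr-2, and none in WT. UMAMIT22, AT5G38780, AT2G05540, AT3G44790, AT3G44960, AT1G44890, AT5G28830 and AT1G35250 completed the largest gains. The named genes carried 29 calls of a gain or a loss. With the same number of the densest peaks taken per library, 1 call remained, that of TBL22 in hda9-1, 26 were lost and the 2 of FBP turned direction.

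AT3G29255 showed the largest loss in hda9-1. Its H3K9ac coverage was 3215 and 3109 bp in WT, 0 bp in both hda9-1 libraries, and 0 and 1400 bp for pwr-2. Its H3K14ac coverage was 3309 bp in WT and 0 in both mutants. The adjacent genes AT1G33090 and AT1G33100 had 3415 and 2112 bp and 2421 and 3021 bp in WT and none in the 4 mutant H3K9ac libraries. AGL79, a MADS-box gene, had 4297 and 366 bp in WT, none in hda9-1 and 966 and 2766 bp in pwr-2, so its 2 WT libraries differed widely. AT5G26280 was covered by 2082 bp in both WT libraries and 2054 bp in both hda9-1 libraries but by none in pwr-2. WT peaks over the lost genes had low density, 0.604 to 0.759 times the library median for the genes named here.

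**Figure D5:**
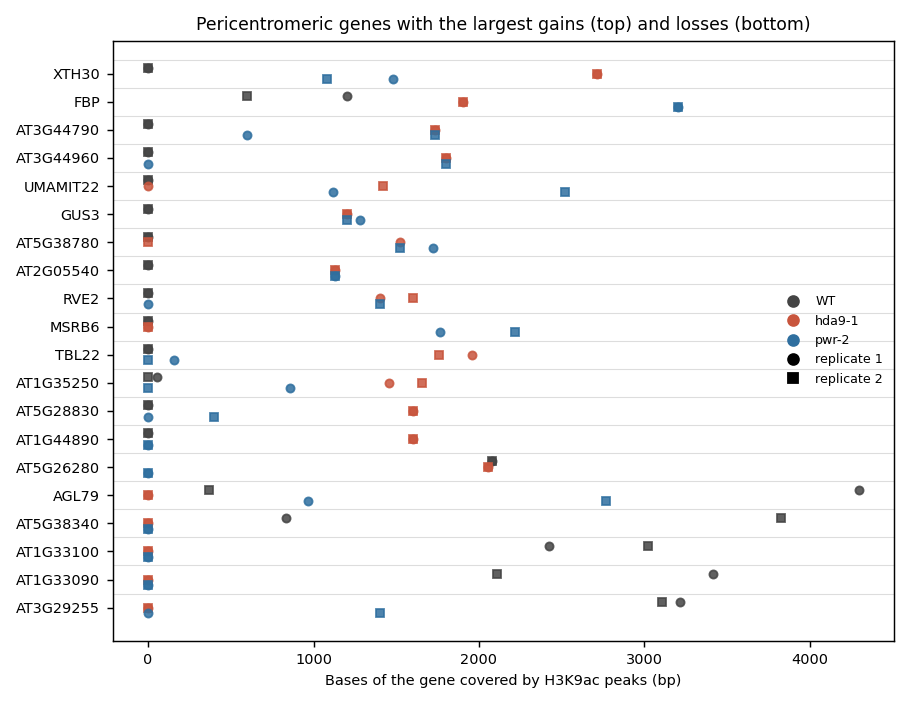
Bases of each gene under H3K9ac peaks (horizontal axis, bp) for the genes with the largest gains (upper rows) and losses (lower rows), with colour for genotype, circles for replicate 1 and squares for replicate 2. XTH30 is at 0 in WT and 2711 bp in both hda9-1 libraries, and AT1G33090 is at 0 in all 4 mutant libraries.

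Overlapping H3K9ac peaks of the 6 libraries were merged into 1610 pericentromeric regions. Of these, 903 (56.1%) held a peak in all 6 libraries, against 66.7% of arm regions, and 249 (15.5%) held one in a single library, against 7.79%. A region without a WT peak was in this set only because at least 1 mutant library had a peak there. Shares of such regions gained therefore report how often mutant libraries shared a peak, and give no rate of gain in unmarked sequence. In hda9-1, 90 of the 245 pericentromeric regions without a WT peak were gained, or 36.7%, where the share over all chromosomes was 48%. In pwr-2, 55 were gained, or 22.4%, against 25.5%. Regions lost numbered 26 of 1011 in each mutant, or 2.57%, where the shares over all chromosomes were 0.883% in hda9-1 and 1.01% in pwr-2. Leaving out WT replicate 1 or 2 raised the losses to 110 or 97 in hda9-1 and to 125 or 97 in pwr-2. Without WT replicate 2 the gains were 193 in hda9-1 and 134 in pwr-2. Without replicate 1 or 2 of the mutant, the losses were 43 or 41 in hda9-1 and 47 or 72 in pwr-2, and the pwr-2 gains were 115 or 126. Without WT replicate 1 the pwr-2 gains were 89. For these looser counts, too, no share over all chromosomes was taken.

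Gained and lost regions differed in shape. Gained regions were 1000 bp wide at the median in hda9-1 and 1400 bp wide for pwr-2, and lost regions 3300 and 3000 bp. The arms showed the same contrast, with 1000 and 1200 bp for gained regions and 4000 and 3000 bp for lost ones. In the hda9-1 libraries the gained regions stood at a median of 0.872 and 0.893 times the library median density, while lost regions stood at 0.698 and 0.662 times in WT. These densities come from libraries of different depth. H3K14ac lay in WT over 39 of the 90 pericentromeric regions gained in hda9-1 (43.3%), over 5 of the 26 lost (19.2%) and over 714 of the 903 present in all 6 libraries (79.1%). The arms had a similar order, at 47.5%, 26.4% and 83.6%. For pwr-2 it lay in WT over 17 of the 55 gained (30.9%) and 3 of the 26 lost (11.5%). The arms had 40.7% of 351 gained and 34.4% of 64 lost.

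The gained regions included a 600 bp region over DCL3 (chr3:15753401-15754000), which encodes a Dicer-like enzyme that makes small interfering RNAs. It held 226 and 324 reads in hda9-1 and had a peak in 1 pwr-2 library, with 164 reads, and in no WT library. A region over NRPB3 (chr2:6733601-6734400), a subunit gene of RNA polymerase II, held 326 and 481 reads in hda9-1, 198 in 1 pwr-2 library, and had no WT peak. A region over RPP1 (chr3:16095601-16096400), a disease resistance gene, held 265 and 363 reads in hda9-1 and 121 and 260 in pwr-2. H3K14ac peaks lay in all of these gained regions in WT. They covered 600 bp of the DCL3 region in each genotype. The NRPB3 region had 400, 400 and 800 bp in WT, hda9-1 and pwr-2, and the RPP1 region 600, 600 and 0 bp. The lost regions included one over SADHU4-1 (chr5:10933801-10935200), a retroelement, with 67 and 125 H3K9ac reads in WT and no H3K9ac peak in the 4 mutant libraries. H3K14ac peaks covered 600, 800 and 600 bp of that region in WT, hda9-1 and pwr-2. These 4 regions were chosen from the lists after their values were seen.

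Reads in the 903 regions shared by all 6 libraries were compared with edgeR's quasi-likelihood test, with Benjamini-Hochberg adjustment over 8332 regions of all chromosomes. No pericentromeric region was called at an adjusted p of 0.05 in either mutant, where the share called over all chromosomes was 0%. At an unadjusted p under 0.05, the hda9-1 comparison had 46 pericentromeric regions higher and 69 lower, or 12.7% in either direction. Over all chromosomes the shares were 6.95% higher, 5.24% lower and 12.2% in either direction. For pwr-2 there were 59 higher and 52 lower, or 12.3%, and the shares over all chromosomes were 7.55%, 7.14% and 14.7%. DESeq2 called 18 of 903 pericentromeric regions for hda9-1, or 1.99%, where the share over all chromosomes was 1.85%. For pwr-2 it called 24 of the 868 to which it gave an adjusted p, or 2.76%, against 2.5%.

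The region over AT3G29644 (chr3:11499401-11501400) had the lowest p in the windows. It held 46.2 and 37.0 CPM in WT, 98.7 and 92.3 for hda9-1, and 107 and 109 for pwr-2. CPM here are reads scaled to the library's total over the tested regions, with edgeR's normalization (TMM). The mutants lay above WT without overlap, in a region picked for its low p. Its log2 change was 1.20 ± 0.20 (SE) in hda9-1 (edgeR adjusted p = 0.237) and 1.38 ± 0.21 in pwr-2 (edgeR adjusted p = 0.183). Per covered base it was 0.90 and 0.88. The region over KAN2 (chr1:11625801-11635400), a regulator of leaf polarity, had a log2 change of 1.76 ± 0.43 (SE) in pwr-2 (edgeR adjusted p = 0.235), and per covered base the sign turned to -0.54. The region over COBL2 (chr3:11727801-11729600), of the COBRA-like cell wall family, changed by -1.24 ± 0.28 (SE) in hda9-1 (edgeR adjusted p = 0.264), and per covered base by 0.46.

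The widest pericentromeric region spanned 21600 bp (chr2:1132801-1154400) over MRH6, ACR5, SOT12 and neighbouring genes and held peaks in all 6 libraries. The widest without an annotated gene spanned 10600 bp (chr1:11722601-11733200). Peaks spanned 8400 and 8600 bp of it in WT, 9800 bp in both hda9-1 libraries, and 8600 and 9000 bp for pwr-2, with no H3K14ac peak in any genotype.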

How the data were processed

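Per the submitters' processing notes, reads were handled with Bowtie and SICER on TAIR10, with no version or parameter stated. Per the labels' protocols, shearing aimed at 200 bp and size selection at 300 to 400 bp. The authors deposited 1 peak list per library, with a start, an end and a whole-number count per peak. The deposited files name no columns, so the count was taken as reads in the peak, as its rank correlation with width (Spearman 0.749 to 0.908 in the windows) and its range allow. Peaks were called per library, and reads outside peaks were not used here.

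Gene positions and names came from a RefSeq table of TAIR10.1 and were used for overlap and names, with no gene coordinates printed. Shifting the genes along the chromosome lowered the overlap with peaks in 9 of 9 libraries. Pericentromere and arms were compared within each library. Merged regions with a peak in all 6 H3K9ac libraries were tested with edgeR 4.0.16 (TMM, all 6 libraries in 1 fit, no replicate block); DESeq2 1.42.0 was an alternative. The edgeR step was tested on simulated data for hda9-1 against WT: over 8332 regions it called 36% of 2-fold increases and 100% of 4-fold increases. Where values are from 2 against 2 libraries, the permutation test cannot reach 0.05.

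The members, gene lists and tests were chosen with earlier results of these data known. Named genes were the 8 largest gains and 5 largest losses in covered bp per mutant, the 5 densest in WT, the innermost marked gene per chromosome and listed genes inside the windows. Named regions were the 5 highest and 5 lowest log2 changes among the 20 lowest p-values per mutant and the widest regions. No 2 peak lists were identical. Alternatives covered window edges, peak membership, a stricter peak list (8739 H3K9ac peaks per library), marking rules, normalization and leaving out each replicate.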

Additional observations from a re-analysis of the deposited data

How the results depend on the processing

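The lower peak number, coverage and median width and the higher median reads per kb of the windows kept their direction under all alternatives run. With 1 library left out the exact permutation p was 0.0625, the smallest that 5 libraries allow, and the log2 ratios ran from -1.60 to -1.58 for peak number, -1.89 to -1.83 for coverage, -0.30 to -0.25 for width and 0.059 to 0.069 for reads per kb. Width was -0.21 with widened windows and -0.21 without chromosome 4 (exact permutation p = 0.125). The differences between genotypes were small and some turned: peak number in hda9-1 was 0.0080 with widened windows and 0.058 with the same number of densest peaks per library, and in pwr-2 0.014 with the latter, as was coverage in pwr-2 at 0.0032. Leaving out 1 library gave -0.038 to -0.0052 (peak number, hda9-1), -0.071 to 0.013 (peak number, pwr-2), -0.24 to -0.15 (coverage, hda9-1), -0.16 to 0.015 (coverage, pwr-2), -0.22 to -0.19 and -0.030 to 0 (width, hda9-1 and pwr-2), and 0.035 to 0.049 and 0.016 to 0.042 (reads per kb). The positive pwr-2 values of peak number and coverage came without pwr-2 replicate 2.

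Leaving out 1 library gave 162 to 248 genes gained and 46 to 172 lost in hda9-1, and 129 to 174 gained and 50 to 189 lost in pwr-2; for regions, 121 to 193 gained and 41 to 110 lost in hda9-1, and 89 to 134 gained and 47 to 125 lost in pwr-2. The rise follows from the rule, which then asks for fewer libraries. With the same number of densest peaks per library, 51 genes were lost in pwr-2, and 47 and 52 regions were lost in hda9-1 and pwr-2. Calling peaks shared where 50% was covered gave 97 regions gained in pwr-2. The cause was not tested. All these gene and region counts are for the windows alone, with no share over all chromosomes under the same setting. DESeq2 called 18 pericentromeric regions in hda9-1 (1.99%, against 1.85% over all chromosomes) and 24 in pwr-2 (2.76%, against 2.5%), where edgeR called 0 in each, with each library left out as well.

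Per covered base, the log2 change turned for the regions over AT3G44960 (-0.038), TOM2A (-0.28 in hda9-1, -0.19 in pwr-2), PAP10 and MCM4 (-0.54 and -0.55), AT1G44770 (-0.21), AT5G27950 (0.17), COBL2 (0.46) and NAC017 (0.56) in hda9-1, and for KAN2 (-0.54), FBP (-0.81), AT3G44716 (0.11) and XTH30 (-0.054) in pwr-2. The median change of windows minus arms turned to 0.023 per covered base in hda9-1, and in pwr-2 to -0.017 when WT replicate 2 was left out and to -0.026 when pwr-2 replicate 1 was (0.076 when pwr-2 replicate 2 was). FBP turned to -900 bp in both mutants with equal numbers of densest peaks.

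To see whether replicate numbers pair the samples, the deviation of replicate 1 from its genotype's mean log2 CPM was correlated between genotypes over regions. The correlations were 0.080 (WT and hda9-1), 0.17 (WT and pwr-2) and 0.16 (hda9-1 and pwr-2). The numbers were not taken to pair the samples. With the replicate block, edgeR called 0 regions in each mutant, and the coverage differences were -0.20 in hda9-1 and -0.073 in pwr-2 (exact permutation p = 0.5 in both). Of the lists, those of H3K14ac hold the fewest reads and, for H3K9ac, those of WT.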
